A study of Rattus norvegicus with 28 samples.

Results

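The collagens and the enzymes and helper proteins that process them were followed across left ventricles of 28 male rats. The members were taken by name: every gene of the array whose symbol is Col, a number, a and a number, the lysyl oxidase genes Lox and Loxl1 to Loxl4, the lysyl hydroxylase genes Plod1 to Plod3, the prolyl hydroxylase genes P4ha1 to P4ha3, and Serpinh1, Pcolce and Pcolce2. Of 41 such genes with a probe of that symbol alone, 39 passed the filter on dim probes, out of 11493 genes that passed it in all. They were 29 collagen chains and 10 processing genes, each with 1 probe. In the dTGR heart, type VIII collagen chain Col8a1, the type IV chains Col4a1 and Col4a2 and the cross-linking enzyme genes Lox and Loxl4 were higher than in control rats, with or without the drug. The fibrillar chains Col1a2 and Col3a1, Loxl1 and the collagen chaperone gene Serpinh1 were higher in treated than in vehicle dTGR, and of these only the Serpinh1 call did not need the 2 vehicle hearts with the lowest fibrillar collagen levels.

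The control group was 8 non-transgenic Sprague Dawley rats (SD), untreated per the labels. The other rats were double transgenic rats (dTGR, strain SD-Tg(hAGT)L1623xTg(hREN)L10J), which carry human angiotensinogen and renin genes and have hypertension; the promoters of the transgenes are not given in the sources used here. Of these, 8 received vehicle (Transcutol, Cremophor-EL and water) and 12 received BAY 41-8543, a stimulator of soluble guanylate cyclase, at 3 mg/kg/day. Allocation to groups took place at 3.5 weeks of age, dosing by daily gavage began at 4 weeks, and the hearts came from rats 7 weeks old. The labels give the phenotype of the dTGR as HFpEF, heart failure with preserved ejection fraction. No non-transgenic rat received the drug or vehicle, so genotype, gavage and cohort cannot be told apart in any comparison with SD.

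A collagen molecule is a triple helix of 3 chains. In the endoplasmic reticulum prolyl and lysyl hydroxylases modify the chains, and the chaperone encoded by Serpinh1 (HSP47) binds the folded helix. After secretion the propeptides are cut, with Pcolce as an enhancer of that cut, and lysyl oxidases cross-link the fibrils. In the heart, fibroblasts make most of the fibrillar type I and III collagen of the scar and the interstitium, while type IV collagen forms the sheet of the basement membrane around myocytes and vessels.

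Every array gave 1 deposited intensity per probe, and levels here are log2 of it. Levels of different probes are not compared with each other. The threshold for a call was an adjusted p of 0.05 in limma (two-sided, Benjamini-Hochberg over all 11493 genes, with the 28 arrays in 1 fit), and all adjusted p-values of differences are from that fit. Differences are on the log2 scale with their standard error (SE). Array medians of intensity lay between 99.5 and 107, and no 2 arrays were identical. Of 7 cardiomyocyte markers measured, the mean level was 15.58 to 15.86 on every array, but single markers differed. Against SD, 1 was called higher and 3 lower in vehicle dTGR, where 23.8% of all genes were called. In treated dTGR 3 were lower than in SD, where 17.4% of all genes were called. Between the dTGR groups 0 were called. The deposited values carry no probe background, so the number of arrays is the limit on precision that can be stated. In bulk tissue, fewer cells of a type and less RNA per cell cannot be told apart.

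The 2 genes with a probe just under the filter level of 5.65 were Col4a6 (mean level 5.61) and Col28a1 (5.51), and the dimmest members above it were Col19a1 (5.71), Col17a1 (5.76) and Col11a1 (5.78). A further 16 rat genes of the same naming rule lack a probe of their own symbol and were not analysed here. Among them are the fibril-regulating chain Col5a1, the type VI chain Col6a3, the endostatin precursor Col18a1, P4ha2, Plod1 and Plod3. Pcolce2 was not analysed here either.

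Between vehicle dTGR and SD, 9 of 39 members were called, 7 higher and 2 lower, where 23.8% of all genes were called, 12.1% higher and 11.7% lower. That is a share of 23.1% of the members, close to the share of all genes, and the median difference was 0.08 against 0.00 for all genes. Between treated and vehicle dTGR, 7 members were called, all higher, where 9.79% of all genes were called, 5.37% higher and 4.42% lower. Their median difference was 0.18 against 0.01. Between treated dTGR and SD, 12 were called, 11 higher and 1 lower, where 17.4% of all genes were called, 9.54% higher and 7.87% lower, and the median difference was 0.13 against 0.01. Any 2 of these comparisons share the arrays of 1 group. Of the 39 members, 22 were called in none of the comparisons, and 6 were higher than SD in both dTGR groups without a call between those groups: Col8a1, Col4a1, Col4a2, Col5a2, Lox and Loxl4. These patterns were not counted over all genes.

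**Figure D1:**
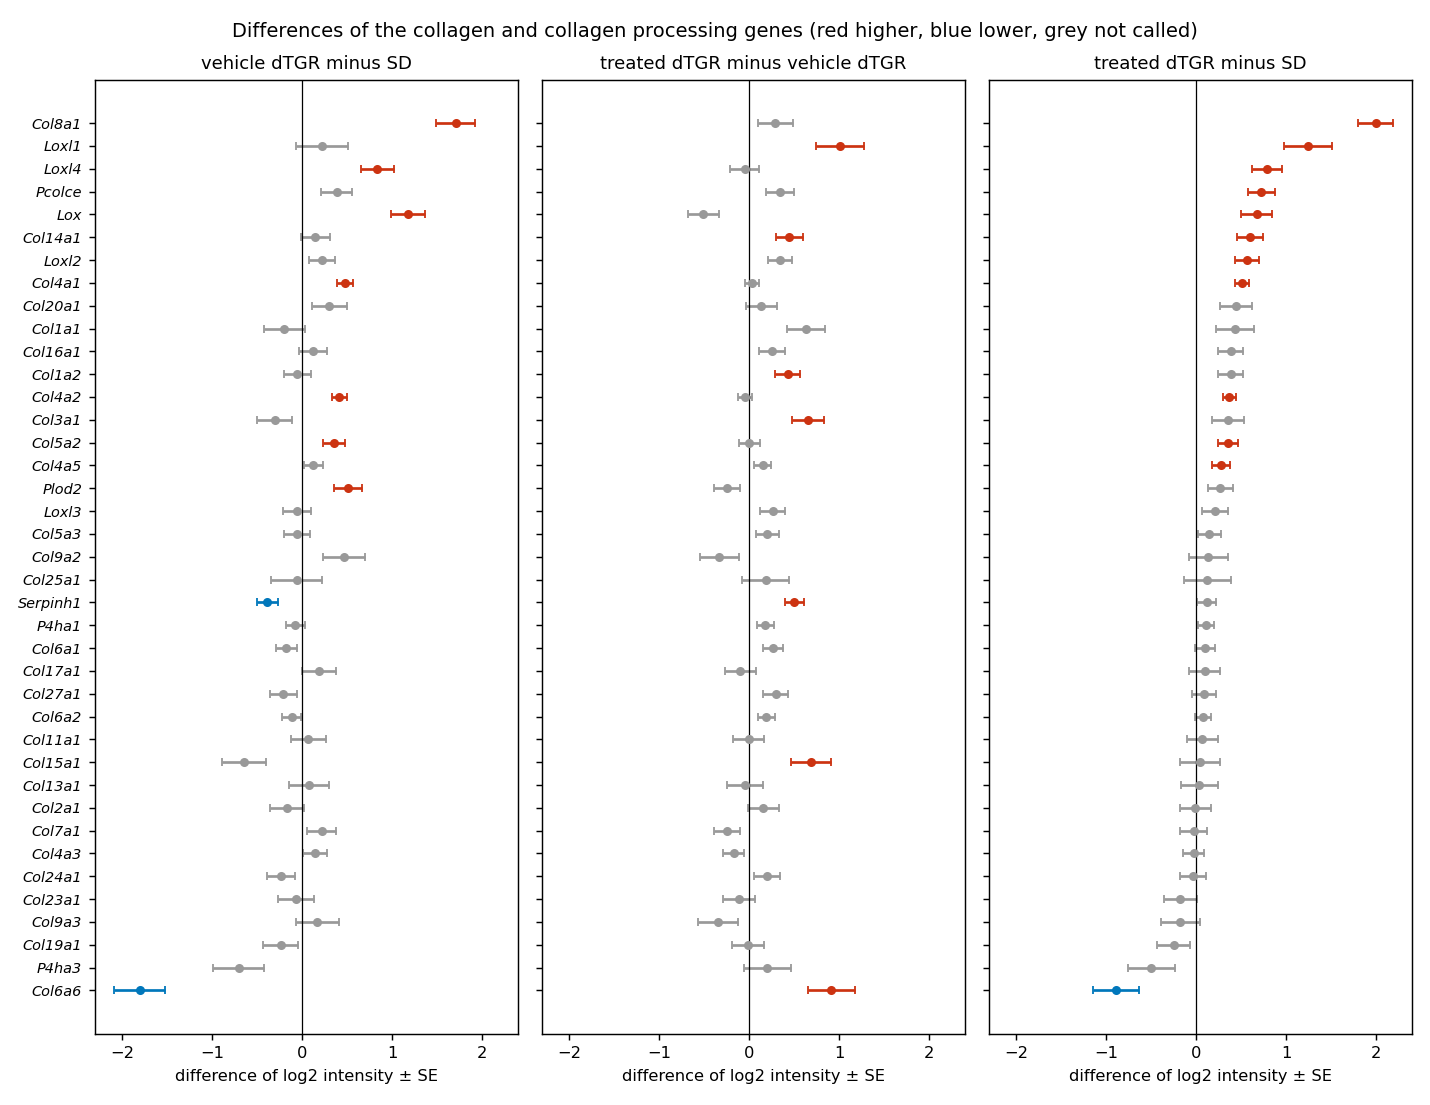
Log2 differences of intensity with standard error for the 39 members in the 3 comparisons, ordered by treated dTGR minus SD; red is called higher, blue called lower and grey not called. Col8a1 was the member raised most over SD in both dTGR groups (1.71 and 1.99), Col6a6 was lowered by a like amount in vehicle dTGR (-1.80), and all 7 members called between treated and vehicle dTGR lay to the right of 0.

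Among the network-forming chains, which assemble into sheets and lattices and not into banded fibrils, Col8a1 differed most. Col8a1 encodes a short-chain collagen of vessel walls and of injured tissue. Its level lay between 7.93 and 9.24 in SD (median 8.37), between 9.37 and 10.63 in vehicle dTGR (median 10.27) and between 9.61 and 11.46 in treated dTGR (median 10.32). All 20 dTGR hearts lay above all 8 SD hearts. The difference was 1.71 ± 0.21 between vehicle dTGR and SD, a 3.26-fold difference (adjusted p = 4.55e-07, 8 of 8 arrays above the SD mean), and 1.99 ± 0.19 between treated dTGR and SD, 3.98-fold (adjusted p = 6.39e-09). Treated minus vehicle was 0.29 ± 0.19 (95% interval -0.11 to 0.68), not called.

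Col4a1 and Col4a2 encode the chains that make up the common type IV collagen of basement membranes. Col4a1 ranged from 10.92 to 11.45 in SD (median 11.32), from 11.57 to 12.07 in vehicle dTGR (median 11.65) and from 11.47 upward in treated dTGR (median 11.79), so no dTGR heart was as low as the highest SD heart. The differences from SD were 0.48 ± 0.09 with vehicle (adjusted p = 0.000149) and 0.51 ± 0.08 with the drug (adjusted p = 2.71e-05). Col4a2 followed with 0.42 ± 0.08 (adjusted p = 0.00029) and 0.37 ± 0.08 (adjusted p = 0.000639), over levels of 10.90 to 11.53 in SD (median 11.26), 11.47 to 11.95 in vehicle dTGR (median 11.63) and 11.40 to 11.78 in treated dTGR (median 11.62), where the groups overlapped at their edges. Between the dTGR groups, Col4a1 differed by 0.03 (95% interval -0.13 to 0.20) and Col4a2 by -0.05 (95% interval -0.20 to 0.10). Col4a5, a chain of the minor type IV networks, had levels of 8.64 to 9.16 in SD (median 8.89), 8.58 to 9.39 in vehicle dTGR (median 9.07) and 8.94 to 9.47 in treated dTGR (median 9.19). It was called only between treated dTGR and SD (0.28 ± 0.10, adjusted p = 0.0461), and that call was lost under 17 of 41 alternative settings. Col4a3 was called in no comparison.

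**Figure D2:**
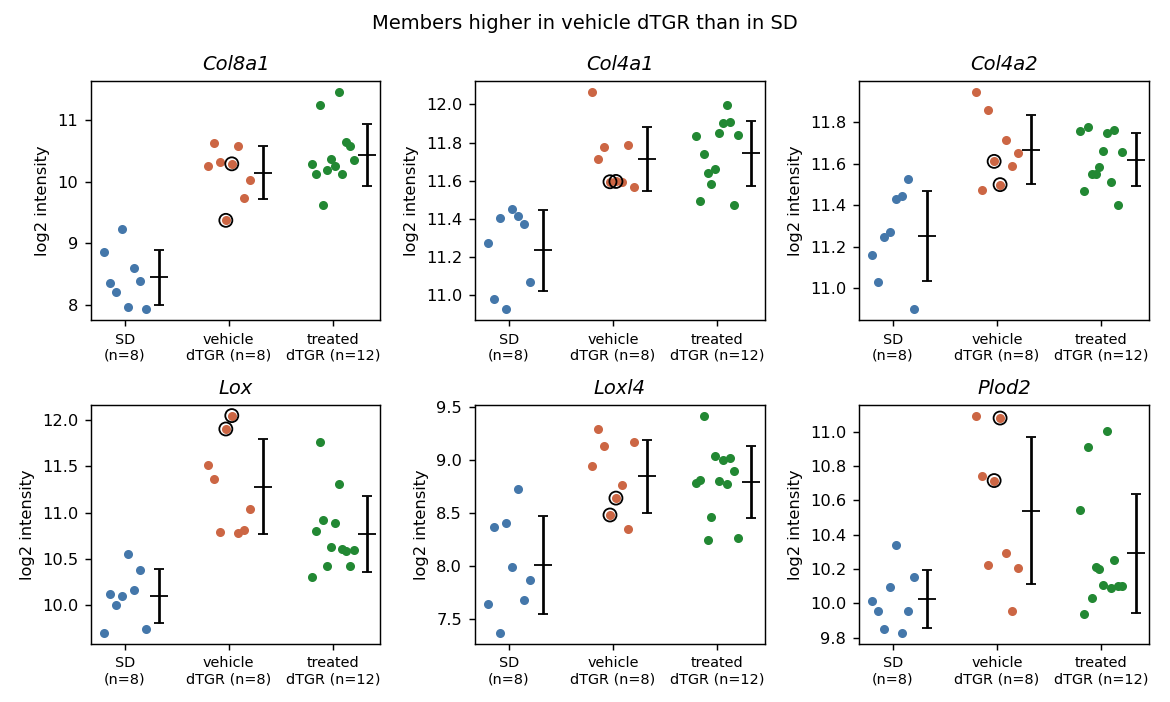
Log2 intensity of 6 members called higher in vehicle dTGR than in SD, 1 point per array (8 SD, 8 vehicle dTGR, 12 treated dTGR); bars are mean ± standard deviation and circles mark vehicle replicates 4 and 5. For Col8a1 and Col4a1 all dTGR points lie above all SD points, while vehicle replicates 4 and 5 hold the highest Lox levels (11.90 and 12.04).

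Col4a1 and Col4a2, both higher than SD in the 2 dTGR groups, lie head to head on rat chromosome 16, with 76 bases between their starts. The intergenic stretch is shown for that reason, and the 250 bases before the starts of Col8a1, Loxl1 and Serpinh1 as examples of a network chain, a cross-linking enzyme and a chaperone that were called here and have a window in the table. Sequences are from RefSeq (build GRCr8), and capitals mark matches to GGGCGG, the core of the GC box that Sp factors bind, or CAGACA, a Smad-binding element, on either strand (a match on the other strand reads CCGCCC or TGTCTG).
Col4a1 and Col4a2, chr16:84885521-84885596, + strand of Col4a1: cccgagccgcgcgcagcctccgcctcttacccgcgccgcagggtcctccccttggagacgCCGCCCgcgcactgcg
Col8a1, chr11:56246532-56246781, + strand: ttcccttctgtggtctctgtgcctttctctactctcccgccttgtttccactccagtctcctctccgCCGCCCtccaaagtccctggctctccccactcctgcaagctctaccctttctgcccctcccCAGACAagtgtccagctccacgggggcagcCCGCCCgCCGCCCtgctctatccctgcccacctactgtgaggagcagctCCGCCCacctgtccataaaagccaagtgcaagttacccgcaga
Loxl1, chr8:67612225-67612474, - strand: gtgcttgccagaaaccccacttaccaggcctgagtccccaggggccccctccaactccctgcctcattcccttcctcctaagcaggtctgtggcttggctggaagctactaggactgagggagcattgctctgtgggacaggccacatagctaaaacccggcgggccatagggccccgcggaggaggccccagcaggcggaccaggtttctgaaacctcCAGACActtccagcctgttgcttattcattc
Serpinh1, chr1:163062977-163063226, - strand: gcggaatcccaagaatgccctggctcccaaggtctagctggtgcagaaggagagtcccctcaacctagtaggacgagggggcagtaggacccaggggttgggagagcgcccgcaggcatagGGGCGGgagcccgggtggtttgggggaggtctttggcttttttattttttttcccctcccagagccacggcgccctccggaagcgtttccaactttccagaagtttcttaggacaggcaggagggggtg
The type IV stretch is 78.9% G and C and holds 1 GGGCGG match. The Col8a1 window holds 4 GGGCGG matches and 1 CAGACA match, the Loxl1 window 1 CAGACA match, and the Serpinh1 window 1 GGGCGG match. Of the 30 members with a window, 19 (63.3%) held GGGCGG in the 250 bases before the start, as did 33.5% of all 27457 genes of the table. CAGACA was found in 6 members (20.0%) and in 18.2% of all genes. For CCAAT the count was 8 members (26.7%, all genes 36.1%), for TATAAA 3 (10.0%, all genes 14.1%) and for ACGTG 3 (10.0%, all genes 18.1%). No motif contains another, a match is not a binding site, and the table holds genes of every kind.

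The lysyl oxidases differed among themselves. Lox, the founding enzyme of collagen and elastin cross-linking, ranged from 9.70 to 10.56 in SD (median 10.12), from 10.78 to 12.04 in vehicle dTGR (median 11.20) and from 10.31 to 11.76 in treated dTGR (median 10.62). All 8 vehicle hearts were above all SD hearts, and the treated hearts overlapped both groups. Lox was 2.27-fold higher with vehicle (1.18 ± 0.19, adjusted p = 1.83e-05) and 1.59-fold higher with the drug (0.67 ± 0.17, adjusted p = 0.00547) than in SD. Treated minus vehicle was -0.51 ± 0.17 (adjusted p = 0.0552), just outside the threshold. Without vehicle replicates 6 and 7 this value was -0.67 (adjusted p = 0.00707), and without treated replicates 3 and 8, which had the highest treated Lox levels, it was -0.66 (adjusted p = 0.0071). It was -0.42 without vehicle replicate 4 (adjusted p = 0.153) and -0.40 without vehicle replicate 5 (adjusted p = 0.162). Over 41 alternatives it ranged from -0.67 to -0.28, and 8 of them called it.

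Loxl4, a relative with scavenger receptor domains, was higher than SD in both dTGR groups (0.84 ± 0.18, adjusted p = 0.000716, and 0.79 ± 0.16, adjusted p = 0.000771). Its levels overlapped, with 7.37 to 8.73 in SD (median 7.93), 8.35 to 9.30 in vehicle dTGR (median 8.85) and 8.25 to 9.42 in treated dTGR (median 8.81). Loxl1, an enzyme best known for elastic fibre upkeep, showed another order: 9.95 to 10.99 in SD (median 10.39), 8.74 to 11.96 in vehicle dTGR (median 10.80) and 11.21 to 12.50 in treated dTGR (median 11.62). The 12 treated hearts lay above all SD hearts. The vehicle hearts overlapped both groups, from 8.74, under the lowest SD heart, to 11.96, under the highest treated heart at 12.50. Loxl1 was 2.36-fold higher in treated dTGR than in SD (1.24 ± 0.26, adjusted p = 0.000994) and 2.02-fold higher than in vehicle dTGR (1.01 ± 0.26, adjusted p = 0.0131). The second value was 0.51 without vehicle replicates 4 and 5 (adjusted p = 0.145).

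Loxl2, which also acts on type IV collagen, was called between treated dTGR and SD only (0.56 ± 0.13, adjusted p = 0.00266). Its levels were 10.29 to 11.01 in SD (median 10.89), 10.38 to 11.55 in vehicle dTGR (mean 11.01) and 11.01 to 11.84 in treated dTGR (median 11.33), so that the highest SD heart and the lowest treated heart met at 11.01. Loxl3 was called in no comparison, at 0.26 ± 0.14 between treated and vehicle dTGR.

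Of the hydroxylases, Plod2, which modifies the telopeptide lysines that later form stable cross-links, was higher in vehicle dTGR than in SD (0.52 ± 0.16, adjusted p = 0.0138). Its level was 9.83 to 10.34 in SD (median 9.98), 9.96 to 11.09 in vehicle dTGR (median 10.51) and 9.94 to 11.01 in treated dTGR (median 10.15). The vehicle hearts split, with replicates 1, 2, 4 and 5 at 10.72 or above and the other 4 at 10.30 or below, and without replicates 4 and 5 the difference was 0.40 (adjusted p = 0.082). P4ha1, a catalytic subunit of prolyl hydroxylase, was called nowhere, and its levels were 11.09 to 11.59, 10.92 to 11.85 and 11.26 to 11.82 in SD, vehicle and treated dTGR. P4ha3, another such subunit, had -0.70 ± 0.29 between vehicle dTGR and SD (adjusted p = 0.0731), not called.

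Serpinh1 was the member whose treatment difference was most stable. Its level was 13.46 to 13.74 in SD (median 13.58), 12.55 to 13.67 in vehicle dTGR (median 13.24) and 13.38 to 13.96 in treated dTGR (median 13.71). Vehicle hearts reached down to 12.55, while the lowest treated heart was at 13.38, although the groups overlapped. Serpinh1 was 1.31-fold lower in vehicle dTGR than in SD (-0.39 ± 0.11, adjusted p = 0.0124, 6 of 8 arrays) and 1.41-fold higher in treated than in vehicle dTGR (0.50 ± 0.10, adjusted p = 0.00274, 12 of 12 arrays). Both calls held under all 41 alternatives, with differences of -0.54 to -0.29 and of 0.41 to 0.65. Treated minus SD was 0.11 (95% interval -0.10 to 0.33), not called. Pcolce, the enhancer of procollagen C-propeptide cleavage, lay between 9.88 and 10.70 in SD (median 10.34), between 10.13 and 11.36 in vehicle dTGR (median 10.80) and between 10.46 and 11.80 in treated dTGR (median 11.02), with overlap at the edges. It was called between treated dTGR and SD (0.72 ± 0.15, 1.65-fold, adjusted p = 0.000989) and had 0.38 ± 0.17 between vehicle dTGR and SD (adjusted p = 0.0997).

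The fibrillar chains form the banded fibrils. Col1a1 and Col1a2 encode the chains of type I collagen, Col3a1 that of type III. Col1a1 ranged from 12.38 to 12.85 in SD (median 12.64), from 10.72 to 13.20 in vehicle dTGR (median 12.69) and from 12.67 to 14.26 in treated dTGR (median 12.91). Medians of SD and vehicle dTGR were close, and the vehicle group had both a low tail and the wider range. Treated minus vehicle was 0.63 ± 0.21 (adjusted p = 0.0551) and treated minus SD 0.43 ± 0.21 (adjusted p = 0.174), neither called. The first was 0.38 without vehicle replicate 5 (adjusted p = 0.159) and 0.27 without replicates 4 and 5 (adjusted p = 0.424), and 7 of 41 alternatives called it. The second was called under 3 of 41: with only the 2 groups in the fit, without vehicle replicate 5, and without vehicle replicates 4 and 5. The spread in the main fit includes the vehicle hearts. Col1a2 reached 12.30 in SD (median 12.16), ranged from 11.11 to 12.61 in vehicle dTGR (median 12.27) and from 12.26 to 13.35 in treated dTGR (median 12.43), with overlap throughout. It was called between treated and vehicle dTGR (0.43 ± 0.14, 1.35-fold, adjusted p = 0.0462), a call lost under 28 of 41 alternatives. Its treated minus SD difference was 0.38 ± 0.14 (adjusted p = 0.0576), not called, and 6 of 41 alternatives called it.

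Col3a1 lay between 12.76 and 13.18 in SD (median 13.07), between 11.29 and 13.23 in vehicle dTGR (median 12.94) and between 12.84 and 14.16 in treated dTGR (median 13.20). The groups overlapped, and all 12 treated hearts were above the vehicle mean of 12.70. Col3a1 was 1.58-fold higher in treated than in vehicle dTGR (0.66 ± 0.18, adjusted p = 0.0164). Without vehicle replicates 4 and 5 the difference was 0.36 (adjusted p = 0.156), and under each of the other 40 alternatives the call held. Its treated minus SD difference was 0.36 ± 0.18 (adjusted p = 0.188), not called. It was called under 2 of 41 alternatives, with only the 2 groups in the fit and without vehicle replicates 4 and 5. Col5a2, a chain of the type V collagen at the core of fibrils, lies 38189 bases from Col3a1 on chromosome 9 and was instead higher than SD in both dTGR groups (0.35 ± 0.12, adjusted p = 0.0359, and 0.35 ± 0.11, adjusted p = 0.0261). Its levels were 9.21 to 9.78 in SD (median 9.44), 9.61 to 10.03 in vehicle dTGR (median 9.80) and 9.32 to 10.60 in treated dTGR (median 9.72), which overlap. Those calls were lost under 9 and 3 of the 41 alternatives.

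**Figure D3:**
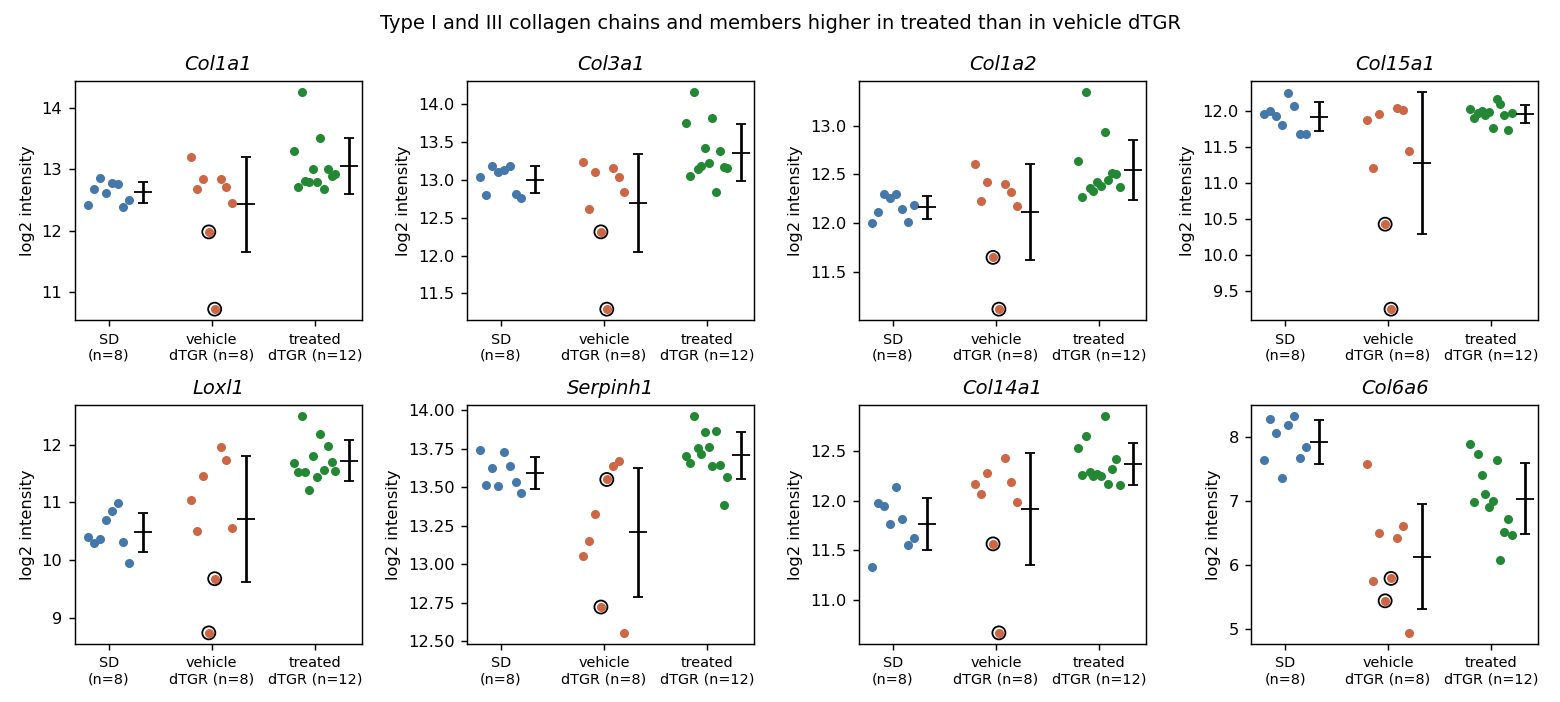
Log2 intensity per array of the type I and III chains and of members higher in treated than in vehicle dTGR (8 SD, 8 vehicle dTGR, 12 treated dTGR); bars are mean ± standard deviation and circles mark vehicle replicates 4 and 5. In Col1a1, Col3a1 and Loxl1 the circled hearts lie below the other vehicle hearts, at 11.98 and 10.72, 12.31 and 11.29, and 8.74 and 9.68.

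Chains outside these classes were also called between treated and vehicle dTGR. Col14a1, a fibril-associated collagen, had levels of 11.34 to 12.14 in SD (median 11.79), 10.67 to 12.42 in vehicle dTGR (median 12.11) and 12.16 to 12.85 in treated dTGR (median 12.27). All treated hearts exceeded all SD hearts (0.60 ± 0.15, adjusted p = 0.00421), and the difference from vehicle dTGR was 0.45 ± 0.15 (adjusted p = 0.0497), lost under 29 of 41 alternatives and at 0.27 without vehicle replicate 5 (adjusted p = 0.132). Col15a1, a basement membrane zone collagen known from muscle and capillaries, ranged from 11.68 to 12.25 in SD (median 11.95), from 9.25 to 12.05 in vehicle dTGR (median 11.66) and from 11.73 to 12.17 in treated dTGR (median 11.97). Its vehicle minus SD difference was -0.64 ± 0.24 (adjusted p = 0.0508), not called, and it ranged from -0.90 to -0.16 over 41 alternatives, 7 of which called it. Without vehicle replicate 5 it was -0.35 (adjusted p = 0.0997), and without replicates 4 and 5 it was -0.16 (adjusted p = 0.321). Treated minus vehicle was 0.68 ± 0.22 (adjusted p = 0.0448), lost under 27 of 41 alternatives, and 0.39 without vehicle replicate 5 (adjusted p = 0.0914).

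Col6a6, a chain of the beaded filaments of type VI collagen, was the member that fell most in the transgenic heart. It lay between 7.36 and 8.34 in SD (median 7.96), between 4.93 and 7.58 in vehicle dTGR (median 6.10) and between 6.07 and 7.90 in treated dTGR (median 6.99). Only 1 vehicle heart, replicate 1 at 7.58, reached the SD range, and some treated hearts did. Col6a6 was 3.49-fold lower in vehicle dTGR than in SD (-1.80 ± 0.28, adjusted p = 1.36e-05, 8 of 8 arrays) and 1.85-fold lower in treated dTGR (-0.89 ± 0.26, adjusted p = 0.0138, 12 of 12 arrays). Treated minus vehicle was 0.91 ± 0.26 (1.88-fold, adjusted p = 0.0203, 11 of 12 arrays), a call lost without vehicle replicate 4, without vehicle replicate 8, without vehicle replicates 4 and 5 together (0.74, adjusted p = 0.156) and without treated replicates 3 and 8 together (0.78, adjusted p = 0.0592). Vehicle replicates 4 (5.44) and 8 (4.93) lay under the filter level of 5.65. With lower values set to that level, Col6a6 was 3.22-fold lower in vehicle dTGR than in SD and 1.74-fold higher in treated than in vehicle dTGR. The other type VI chains, Col6a1 and Col6a2, were called in no comparison.

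The treatment calls leaned on few vehicle hearts. Vehicle replicates 4 and 5 were the 2 lowest of the 8 vehicle arrays in 15 of the 39 members, among them Col1a1, Col1a2, Col3a1, Col6a1, Col14a1, Col15a1, Loxl1 and Pcolce. The same hearts were the 2 highest in Lox and Col19a1. How often these hearts took such ranks over all genes was not counted, so the 15 members are not set against a general share. In Col1a1 they stood at 11.98 and 10.72 while the other 6 lay between 12.45 and 13.20, and in Col15a1 at 10.43 and 9.25 against 11.21 to 12.05. Without them, chosen after their values were seen, 1 member was called between treated and vehicle dTGR, Serpinh1 (0.48, adjusted p = 0.0137), and the calls over all genes went from 1125 to 244. In that fit 11 members were called between vehicle dTGR and SD: Loxl1 (0.73), Loxl2 (0.41), Pcolce (0.57) and Col14a1 (0.42) gained a call there, and Plod2 and Col5a2 lost it.

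Other hearts moved the treatment count as well. Without vehicle replicates 6 and 7, which an earlier analysis of these data placed among the treated arrays, 12 members were called, 11 higher and 1 lower, the lower being Lox. Leaving out any of vehicle replicates 2, 4, 5 or 8, SD replicates 2, 3, 4 or 6, or treated replicates 1, 6 or 10 gave 3 or 4 calls. Treated replicate 3 held the highest level of all 28 arrays in 12 members, Col1a1 (14.26) among them. How often it was the highest over all genes was not counted. Without treated replicates 3 and 8 there were 4 calls, 3 higher and Lox lower.

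**Figure D4:**
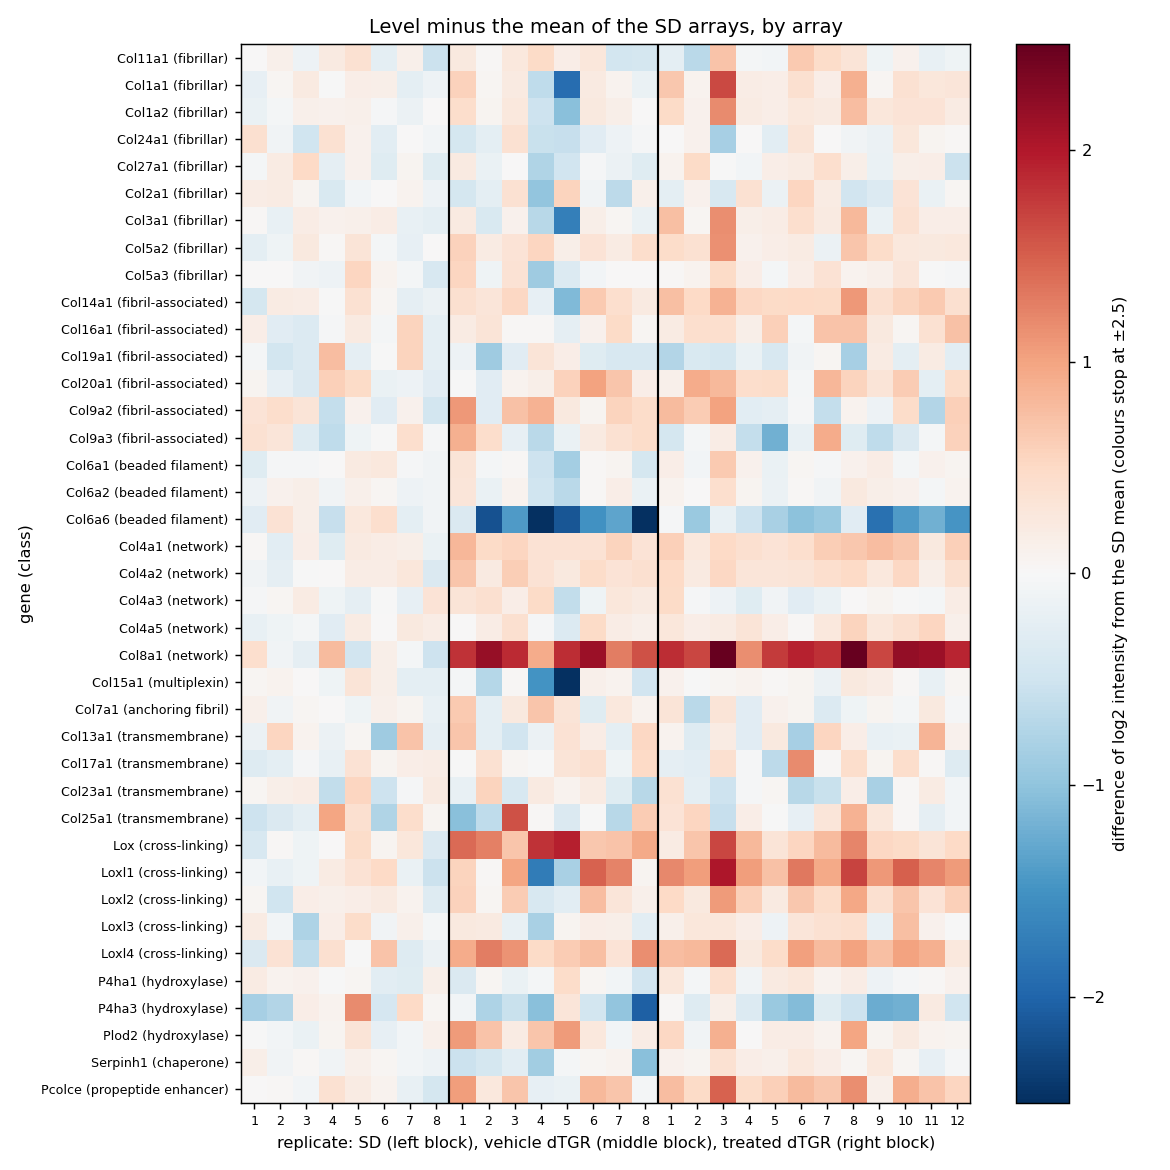
Levels of the 39 members on the 28 arrays, as log2 intensity minus the mean of the SD arrays, with arrays in columns by group and members in rows. Vehicle replicates 4 and 5 are low in Col1a1, Col3a1 and Col15a1 and high in Lox. Treated replicate 3 is the highest of the 28 arrays in 12 members, a rank not counted over all genes.

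Some pairs of chains varied together from heart to heart within the dTGR groups. Over 9 pairs in 3 groups, 27 relations were computed, and each was tested by permutation within its group, exactly for 8 arrays and with 100000 permutations for 12, with Benjamini-Hochberg adjustment over the 27. Col1a1 and Col1a2 had r = 0.99 in vehicle dTGR (rho = 0.98, n = 8, exact permutation p = 4.96e-05, adjusted 0.000446). Without the 2 arrays farthest from the Col1a1 median, r was 0.98. In treated dTGR, r was 0.97 (rho = 0.77, n = 12, permutation p = 7e-05, adjusted 0.000472), and 0.80 without the 2 farthest. Col1a1 and Col3a1 had r = 0.98 in vehicle dTGR (rho = 0.98, exact permutation p = 0.000694, adjusted 0.00313) and 0.95 in treated dTGR (rho = 0.89, permutation p = 1e-05, the smallest these permutations could give, adjusted 0.00027), with 0.72 and 0.95 after the 2 farthest were left out. Col6a1 and Col6a2 had r = 0.96 in vehicle dTGR (rho = 0.98, exact permutation p = 4.96e-05, adjusted 0.000446) and 0.85 in treated dTGR (rho = 0.68, permutation p = 0.00167, adjusted 0.00644), with 0.86 and 0.42 without the 2 farthest, so the treated value rests on those arrays. All of these points share the array, its labelling and its normalization.

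Col4a1 and Col4a2, the partner chains with a shared start region, passed in no group. They had r = 0.68, 0.66 and 0.64 in SD, vehicle and treated dTGR (rho = 0.55, 0.17 and 0.53), with permutation p-values of 0.0726 (exact), 0.0788 (exact) and 0.0272, none under 0.05 after adjustment (0.14, 0.142 and 0.0734). Col1a1 and Loxl1 had r = 0.88 in treated dTGR (rho = 0.80, n = 12, permutation p = 0.0005, adjusted 0.0027), and 0.53 without the 2 farthest arrays. Col1a1 and Lox ran in opposite directions in the 2 dTGR groups, with r = -0.70 in vehicle (rho = -0.62, exact permutation p = 0.0301, adjusted 0.0738) and 0.73 in treated dTGR (rho = 0.19, permutation p = 0.0181, adjusted 0.0544). Neither passed the threshold, and without the 2 farthest arrays they were 0.38 and -0.58, so both rest on those arrays. Col3a1 and Col5a2 in treated dTGR (r = 0.71, rho = 0.38, permutation p = 0.0112, adjusted 0.0377) likewise fell to 0.06. In SD no pair passed the threshold.

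**Figure D5:**
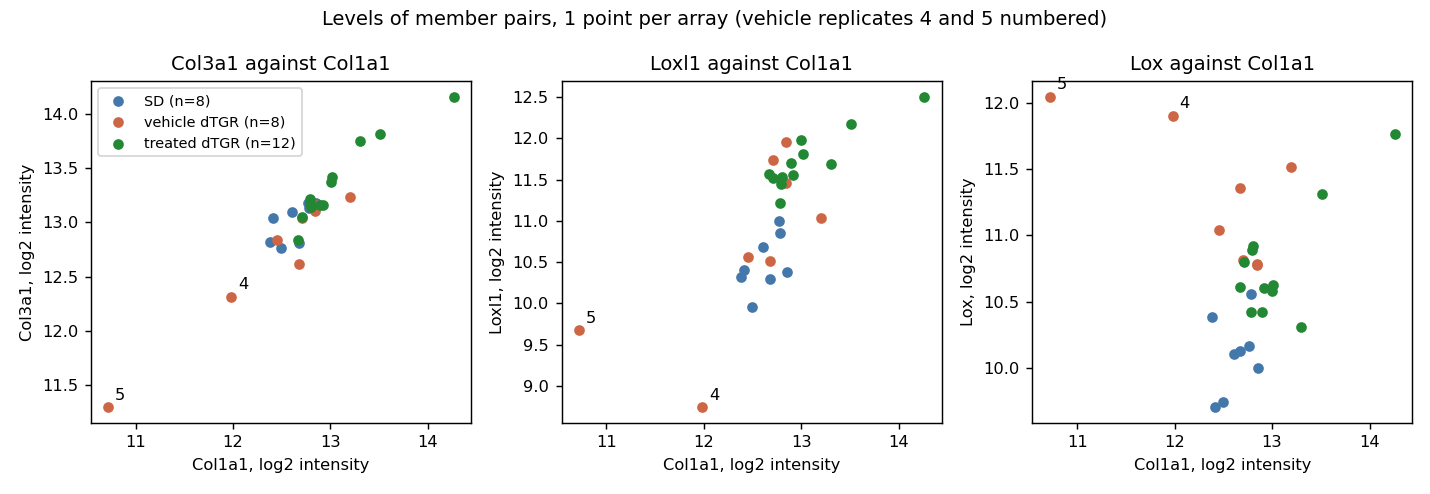
Log2 intensity of Col3a1, Loxl1 and Lox against that of Col1a1, 1 point per array coloured by group, with vehicle replicates 4 and 5 numbered. Col3a1 lies along a line with Col1a1 in both dTGR groups (r = 0.98 and 0.95), whereas the highest Lox levels are at vehicle replicates 4 and 5, where Col1a1 is lowest.

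The 22 members called in no comparison included Col1a1, Col6a1, Col6a2, P4ha1 and 2 further processing genes, Loxl3 and P4ha3. Their vehicle minus SD differences ran from -0.70 (P4ha3) to 0.47 (Col9a2), their treated minus vehicle differences from -0.35 (Col9a3) to 0.63 (Col1a1), and their treated minus SD differences from -0.50 (P4ha3) to 0.44 (Col20a1). Many were dim: Col7a1, Col11a1, Col13a1, Col16a1, Col17a1, Col19a1, Col20a1, Col25a1 and Col9a2 had group means between 5.63 and 6.60. None of the 4 transmembrane collagens, which can be shed from cell surfaces, was called.

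Genes that act on collagens without belonging to them were described from lists drawn up by role. Over all genes, 12.1% were called higher and 11.7% lower in vehicle dTGR than in SD. The shares were 5.37% and 4.42% for treated minus vehicle dTGR, and 9.54% and 7.87% for treated dTGR minus SD. They are the reference for the counts of every list below. Of 14 measured genes of folding, modification and secretion, 2 were higher and 4 lower in vehicle dTGR than in SD (median -0.06). P3h2, a prolyl 3-hydroxylase that acts on type IV collagen, was 1.01 ± 0.18 above SD with vehicle (adjusted p = 5.87e-05) and 1.01 ± 0.16 with the drug (adjusted p = 2.44e-05), over levels of 9.62 to 10.47 in SD, 10.43 to 11.99 in vehicle and 10.42 to 11.41 in treated dTGR. Fkbp10, a prolyl isomerase that aids procollagen folding, was higher in both (0.45 ± 0.13, adjusted p = 0.00822, and 0.42 ± 0.12, adjusted p = 0.00936). Mia2, of the export machinery for large cargo, was lower in both (-0.40 and -0.33). Ero1a, an oxidase for disulfide bonds, was higher in treated dTGR than in SD (0.25). Fkbp14, another isomerase of the endoplasmic reticulum, was -0.60 ± 0.13 in vehicle dTGR against SD (adjusted p = 0.000916) and 0.43 ± 0.12 higher in treated than in vehicle dTGR (adjusted p = 0.0208), the 1 call of this list between these groups, lost without vehicle replicate 4, without replicate 8 and without replicates 4 and 5 together. None of 3 measured propeptide cleavage genes was called.

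Of 16 measured genes of fibril assembly and collagen-binding matrix, 4 were higher and 4 lower in vehicle dTGR than in SD (median 0.07), and 5 were higher and 1 lower in treated dTGR than in SD (median 0.21). Postn, which encodes periostin, was higher in both (1.28 ± 0.44, adjusted p = 0.0344, and 1.58 ± 0.41, adjusted p = 0.00584), as was the microfibril gene Mfap5 (0.60 ± 0.19 and 0.84 ± 0.17). The small proteoglycan gene Bgn was higher in both (0.44 ± 0.13 and 0.68 ± 0.12), and Fmod, which encodes fibromodulin, lower in both (-0.94 ± 0.22 and -0.78 ± 0.20). Between treated and vehicle dTGR, 4 were higher and 0 lower (median 0.19): the proteoglycan genes Lum (0.61 ± 0.15, adjusted p = 0.00986) and Aspn (0.65 ± 0.18, adjusted p = 0.0209), the fibrillin gene Fbn1 (0.61 ± 0.16, adjusted p = 0.0141) and the thrombospondin gene Thbs2 (0.62 ± 0.15, adjusted p = 0.00686), which had been lower in vehicle dTGR than in SD (-0.46 ± 0.16). Each lost its call without vehicle replicates 4 and 5. Of 6 measured collagen receptors, Adgrg1 was higher (0.59 ± 0.15) and the uptake receptor gene Mrc2 lower (-0.29 ± 0.11) in vehicle dTGR than in SD, and the integrin gene Itga1 was higher in treated dTGR than in SD (0.26 ± 0.09). The fibrillar collagen receptor gene Ddr2 was higher in treated than in vehicle dTGR (0.30 ± 0.08, adjusted p = 0.0144), likewise lost without those hearts. The calls against SD of Postn and Thbs2 (vehicle), Mrc2 (vehicle) and Itga1 (treated) were lost under 10, 13, 16 and 17 of 41 alternatives.

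The list of collagen degradation holds both proteases and the TIMP genes, whose products inhibit metalloproteinases. Of its 11 measured genes, 7 were higher in vehicle dTGR than in SD and 0 lower (median 0.46), where 12.1% of all genes were higher and 11.7% lower. Among the 7 were the inhibitor genes Timp1 and Timp3. The treated hearts had 5 of them lower and 1 higher than the vehicle hearts (median -0.22), and 6 higher than SD (median 0.30). Of the 5 that were lower with the drug, 3 were inhibitors, Timp1, Timp3 and Timp4, and the others were the proteases Ctsl and Mmp8. Timp1 had the largest vehicle minus SD difference of the list (1.78 ± 0.31, adjusted p = 5.35e-05), over levels of 9.99 to 10.70 in SD (median 10.44), 10.88 to 13.70 in vehicle dTGR (median 12.14) and 10.42 to 12.48 in treated dTGR (median 11.18). No vehicle heart was in the SD range, and the treated hearts overlapped both groups. Treated minus vehicle was -0.96 ± 0.28 for Timp1 (adjusted p = 0.0263), -0.80 ± 0.23 for Timp4 (adjusted p = 0.0261) and -0.26 ± 0.08 for Timp3 (adjusted p = 0.0397), and each call was lost without vehicle replicates 4 and 5. Timp3 was 0.35 ± 0.09 above SD with vehicle (adjusted p = 0.00449). The 1 gene higher with the drug than with vehicle was Fap, a protease of activated fibroblasts (0.64 ± 0.15, adjusted p = 0.00761), lost without those hearts too. Ctsl, which encodes the lysosomal protease cathepsin L, ranged from 12.67 to 12.80 in SD (median 12.71), from 13.12 to 14.36 in vehicle dTGR (median 13.68) and from 12.99 to 13.33 in treated dTGR (median 13.15). No dTGR heart was in the SD range. Ctsl was 1.02 ± 0.11 above SD with vehicle (adjusted p = 9.78e-08), and treated hearts were 0.59 lower than vehicle hearts (difference -0.59 ± 0.10, adjusted p = 0.000754), which held under all 41 alternatives. Mmp14, the membrane-bound collagenase, was above SD in both dTGR groups (0.88 ± 0.16, adjusted p = 8.63e-05, and 0.66 ± 0.14, adjusted p = 0.00115), and Ctsk, whose product cleaves the helix itself, likewise (0.46 ± 0.13 and 0.50 ± 0.11). The neutrophil collagenase gene Mmp8 was 1.00 ± 0.33 above SD with vehicle (adjusted p = 0.0241) and 1.18 lower in treated than in vehicle dTGR (difference -1.18 ± 0.30, adjusted p = 0.0104), and neither call held without vehicle replicates 4 and 5. Of 11 profibrotic signal genes, 4 were higher and 1 lower with vehicle than in SD (median 0.09), 6 higher and 1 lower with the drug than in SD (median 0.31), and 2 higher in treated than in vehicle dTGR (median 0.20). The matricellular gene Ccn2 had the largest differences from SD (2.27 ± 0.30 and 2.57 ± 0.28, adjusted p = 1.23e-06 and 3.63e-08). Smad7, an inhibitor of TGF-beta signalling, was higher (0.58 ± 0.14 and 0.45 ± 0.13) and the growth factor gene Pdgfa lower (-0.66 ± 0.10 and -0.46 ± 0.09). The genes higher with the drug than with vehicle were Pdgfb (0.31 ± 0.09) and the receptor gene Tgfbr1 (0.22 ± 0.07), lost under 11 and 33 of 41 alternatives. The latent TGF-beta binding protein gene Ltbp2 was 1.45 ± 0.36 and 1.80 ± 0.33 above SD (adjusted p = 0.00326 and 0.00018).

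Markers of the cells that could supply these transcripts moved with the groups. The mean level of 12 cardiac fibroblast markers was 11.11 to 11.50 in SD, 11.21 to 11.70 in vehicle dTGR and 11.13 to 11.91 in treated dTGR, with 5 called higher and 1 lower, 2 higher and 2 lower, and 5 higher and 1 lower in the comparisons vehicle minus SD, treated minus vehicle and treated minus SD. Over all genes, 12.1%, 5.37% and 9.54% were called higher and 11.7%, 4.42% and 7.87% lower in these comparisons. The mean of 7 activated fibroblast markers was 7.32 to 8.20, 8.19 to 9.74 and 8.63 to 10.80 in SD, vehicle and treated dTGR. All 7 were higher in treated dTGR than in SD, with 4 higher in vehicle dTGR. Between treated and vehicle dTGR, 2 of the 7 were called higher and 0 lower (median 0.64). The lists overlap: Postn, Fap and Ltbp2 of this list, and Dpt, Lum, Dcn and Mfap5 of the cardiac fibroblast list, also stand in the collagen pathway lists above. All 8 macrophage markers were higher in vehicle dTGR than in SD, and 3 were lower in treated than in vehicle dTGR, over means of 9.57 to 10.23, 10.23 to 11.27 and 10.01 to 10.97. Of 7 smooth muscle and pericyte markers, 4 were higher than SD in either dTGR group, over means of 11.30 to 11.56, 11.45 to 11.93 and 11.70 to 12.02. Of the same 7, 2 were higher and 0 lower in treated than in vehicle dTGR. The mean of 8 endothelial markers was 11.46 to 11.80, 11.67 to 11.80 and 11.58 to 11.85, with 1 higher, then 2 higher and 2 lower, then 1 higher and 1 lower. Of 5 mesothelial markers, 4 were lower than SD in either dTGR group, over means of 6.72 to 8.75, 5.44 to 6.38 and 5.43 to 7.35. Vehicle replicates 4 and 5 had the 2 lowest cardiac fibroblast means of the vehicle group (11.27 and 11.21), activated fibroblast means of 8.38 and 8.19, and endothelial means of 11.79 and 11.67. The part of these markers in the differences of the collagen genes was not tested.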

How the data were processed

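Left ventricle RNA (250 ng per sample) of 28 rats was measured on 1-colour whole transcript arrays, per the labels' protocols. The authors deposited 1 linear intensity per probe and array, from 1.90 to 162208; RMA was used per the submitters' processing notes, and its version and the scaling are not given in the sources used here. Groups came from the labels (SD 8, vehicle dTGR 8, treated dTGR 12), and replicates were numbered in accession order. The design text states 4 weeks of treatment, at odds with the stated ages of 4 and 7 weeks, and the duration was not used. Nothing says whether animals were littermates or how arrays were batched, and p-values measure the spread between these samples. Vehicle and treated animals have separate runs of animal numbers, so treatment and such a run cannot be told apart.

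Log2 intensity was tested with limma 3.58.1 (R 4.3.3): 1 linear model of group means over all 28 arrays, with variances moderated along an intensity trend, adjusted by Benjamini-Hochberg over 11493 genes. Of 36685 probes, 14824 carry 1 symbol in the platform annotation and 829 several, none of which include a member. Probes with a mean above the 30th percentile of all probes (log2 5.65, intensity 50.2) were kept, and the brightest probe stood for each gene. Members, gene lists and alternatives were chosen with earlier results of these data known. Full values are given for up to 10 called members with the largest differences per comparison and a fixed set of fibrillar, network and processing genes; of each other collagen pathway list, up to 4 called genes with the largest differences per comparison. Cell type lists are given as counts and mean levels. Timp3 and the genes named only as dim, or as low or high in single hearts, were named after their values were seen. The model was run on simulated data with independent arrays and the same spread of a gene in every group. The wider vehicle spread of members such as Col15a1 (standard deviation 0.99, against 0.20 in SD) was not simulated. Relations between members used permutation tests (SciPy 1.17.1). Alternatives were other filters, normalizations, scales, variance priors, probe rules and samples. Promoter windows came from a RefSeq table (GRCr8). Protein sequences were not used here.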

Additional observations from a re-analysis of the deposited data

Results flagged for a closer look

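In 3 of the 78 combinations of member and group that were checked, 1 array stood apart from its group by Dixon's criterion, which flags about 5% of such combinations by chance. Col3a1 was lowest in vehicle replicate 5, at 11.29, and the next vehicle heart, replicate 4, was at 12.31. Col4a1 was highest in vehicle replicate 1, at 12.07, and the next was at 11.79. Loxl3 was lowest in SD replicate 3, at 7.99, and the next SD heart was at 8.66. Groups of more than 10 arrays, such as treated dTGR, were not checked this way. The causes were not tested.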

How the results depend on the processing

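Of the results counted, those in the 2 comparisons with SD kept within 1.5 times of their main value under every alternative run. The number of members called between treated and vehicle dTGR, 7 in the main setting, was 4 with no filter on dim probes, with no intensity trend, with a robust prior, with only the 2 groups in the fit, with every probe on its own, and without treated replicates 3 and 8 together, 12 without vehicle replicates 6 and 7 together, and 1 without vehicle replicates 4 and 5 together. The number of all genes called in that comparison was 2066 and 244 without those vehicle pairs. The cause was not tested. Leaving out 1 array at a time gave 3 to 10 members and 659 to 1560 genes for treated minus vehicle, 8 to 12 members and 2468 to 2910 genes for vehicle minus SD, and 10 to 14 members and 1759 to 2139 genes for treated minus SD. The pairs of arrays 4 and 5, and 3 and 8, were added after seeing the data. No called member changed direction, and no direction is claimed for uncalled ones. No paired analysis was possible because the animal numbers of the labels are not shared between groups. Of the repeats of the relations between members, 120 kept their side of the threshold, moved by under 0.2 in r, or changed sign while uncalled. Those that changed sign without the 2 farthest arrays were Col1a1 with Lox and Col1a1 with Serpinh1. For Lox, r went from -0.70 to 0.38 in vehicle and from 0.73 to -0.58 in treated dTGR. For Serpinh1 it went from -0.07 to 0.30 and from 0.37 to -0.14. A further 13 kept their sign and moved by more than 0.2 without the 2 farthest arrays. With Spearman's rho, 2 lost the call (Col3a1 with Col5a2, and Col6a1 with Col6a2, in treated dTGR). The arrays carry no background measure, so how far dim members such as Col19a1 stand above it is unknown.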
